A study of Mus musculus with 52 samples.

Results

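The Slc25 family of mitochondrial carriers was examined in a fractionated ribosome profiling study of mouse embryonic fibroblasts. Its members were taken as every gene whose symbol starts with Slc25a, which gave 47 of the 22417 genes in the deposited tables. In untreated cells the endoplasmic reticulum (ER) fraction held a median 41.2% of a carrier's ribosome footprint score, near the 40.2% of all genes, against 95% for solute carriers of other families that bear the tables' TRUE mark. After 0.5 h of thapsigargin the carriers' ER scores differed from untreated by a median of -0.49 on the log2 scale, beside -0.22 for all genes. After 30 min of dithiothreitol the 3 most abundant carriers, Slc25a5, Slc25a3 and Slc25a4, had ER changes of -1.58, -1.73 and -1.83 on the log2 scale. These were among the lowest of the carriers, and 19% of all genes were over 2-fold lower there.

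Mitochondrial carriers are small, nuclear-encoded proteins that cross the inner mitochondrial membrane several times and exchange nucleotides, phosphate, metabolites, amino acids, cofactors and ions between the cytosol and the matrix. Most lack a cleaved presequence, are made on cytosolic ribosomes, and are handed by cytosolic chaperones and the outer membrane channel to the carrier translocase of the inner membrane. They therefore share several membrane spans with the solute carriers of the plasma membrane and secretory pathway, which are made on ER-bound ribosomes, but do not enter the ER. Slc25a17 is an exception in location, residing in peroxisomes, and Slc25a46 sits in the outer mitochondrial membrane.

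All cells carried the genotype CReP+/-; GADD34+/+ (WT), so the untreated cells too were heterozygous for CReP, a regulatory subunit of the phosphatase that acts on the translation factor eIF2 alpha, and wild type for GADD34, the inducible subunit. One set of cells received thapsigargin (Tg), which blocks the ER calcium pump, for 0.5, 1, 2 or 4 h. Another received 30 min of dithiothreitol (DTT), which reduces disulphide bonds, followed by 0, 10 or 20 min of recovery, and untreated cells served both sets. Each condition was split into an ER and a cytosol fraction, and the tables hold ribosome footprint and mRNA values for each. There were 52 labelled samples, a pair of replicates in each of 26 groups. The 40 samples of untreated and thapsigargin-treated cells are labelled as footprints or mRNA, but the 12 DTT samples, in 6 groups, do not name their assay, and a pair per group cannot give replicate pairs for both. How many samples stand behind each DTT score is therefore not known. The tables give 1 score per gene, assay, fraction and condition, so no spread between replicates, test or p-value could be given. "Over 2-fold" below is a description of size, and the thapsigargin and DTT series share their untreated values: each untreated score of the DTT table equalled that of the thapsigargin table after scaling by 0.913 (ER) or 1.06 (cytosol).

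The scores are the authors' units for footprints, mRNA and footprints per mRNA, and no read counts were analysed, so the depth behind a score is unknown. Summed footprint scores of both fractions were 1059492 to 1210459 per condition. Genes that encode ER and secretory pathway proteins, used as markers of the ER fraction, had 98.7% to 99.3% of their untreated score there, and the 6 cytosol markers 29.3% to 36.6%. All 8 fibroblast markers had values (summed score 4293 to 16765 per condition). Summed scores of the other lists reached at most 0.646 for epithelial, 0.661 for endothelial and 1.16 for haematopoietic markers, with Krt8, Pecam1, Ptprc and Itgam blank throughout.

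Of the 47 carriers, 37 had a footprint score in at least 1 column of the thapsigargin table and 28 had one in all 10 columns. The 10 without any were Slc25a18, Slc25a21, Slc25a31, Slc25a34, Slc25a41, Slc25a43, Slc25a45, Slc25a48, Slc25a53 and Slc25a54. The other 9 had some blanks. For DTT, 36 had a value and 23 had all 8, because the ER column after 30 min of DTT listed fewer genes (9205, against 12676 untreated). Differences below are between log2(score + 1) values, for genes complete in that table, and so understate the change of carriers with scores near 1. No source used here says whether scores were divided by transcript length. Levels are compared between carriers only with that limit.

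A TRUE or FALSE mark in a column without a heading splits the genes, and 20 of the 47 carriers were marked TRUE (42.6%), against 37.6% of all genes. The marked carriers included Slc25a3, Slc25a4, Slc25a5, Slc25a17, Slc25a20 and Slc25a46. Slc25a24, Slc25a11, Slc25a12, Slc25a10 and Slc25a30 were unmarked. By contrast 317 of 322 genes listed as other solute carriers were marked (98.4%). That list was taken by symbol, Slc and a digit, and may hold genes that are not carriers. Its unmarked genes include Slc7a6os, Slc4a1ap and Slc9a3r1. No source used here says what the mark stands for. Over the genes with complete footprints, marked genes other than the carriers had a median 92.2% of their untreated score in the ER and unmarked ones 38.9%.

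The ADP/ATP carriers and the phosphate carrier gave most of the family's footprints. Slc25a5 and Slc25a4 exchange cytosolic ADP for matrix ATP, and Slc25a3 brings in the phosphate for ATP synthesis. Their untreated scores summed over both fractions were 693 for Slc25a5, 588 for Slc25a4 and 481 for Slc25a3, together 72.2% of the family's 2444. The next was Slc25a24 at 143, a calcium-regulated ATP-Mg/phosphate carrier, and the 10 highest carriers made up 89.4%. The 250 bases before the annotated starts of the 3 leading carriers are shown as background, with sequence motifs in capitals. A link between these motifs and the scores was not tested.

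Slc25a3, chr10:91123968-91124217, minus strand: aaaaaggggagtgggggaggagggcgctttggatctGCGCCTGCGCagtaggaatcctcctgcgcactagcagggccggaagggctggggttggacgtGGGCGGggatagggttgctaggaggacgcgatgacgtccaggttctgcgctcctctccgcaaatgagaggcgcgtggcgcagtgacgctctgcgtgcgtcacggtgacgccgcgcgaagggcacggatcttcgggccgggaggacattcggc
Slc25a4, chr8:46211063-46211312, minus strand: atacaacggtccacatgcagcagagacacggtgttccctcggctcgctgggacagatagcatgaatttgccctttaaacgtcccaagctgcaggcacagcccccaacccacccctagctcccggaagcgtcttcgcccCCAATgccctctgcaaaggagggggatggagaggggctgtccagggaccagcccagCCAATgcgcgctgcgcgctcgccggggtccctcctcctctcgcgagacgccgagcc
Slc25a5, chrX:36795347-36795596, plus strand: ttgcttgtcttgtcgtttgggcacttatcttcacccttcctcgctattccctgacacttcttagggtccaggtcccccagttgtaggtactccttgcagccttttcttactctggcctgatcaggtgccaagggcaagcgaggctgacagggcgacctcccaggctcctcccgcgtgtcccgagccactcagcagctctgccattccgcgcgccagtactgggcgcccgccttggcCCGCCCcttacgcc

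These windows come from RefSeq on build GRCm38.p6, for which 36 of the 47 carriers had an entry. In Slc25a3 the capitals mark 1 NRF-1 site (GCGC and TGCGC, 1 base apart) and 1 GC box (GGGCGG), in Slc25a4 they mark 2 CCAAT boxes, and in Slc25a5 they mark 1 GC box on the opposite strand. Motifs were counted in the first listed window of each carrier, on both strands, and their percentages are over all windows. CCAAT occurred in 33.8% of 32851 promoter windows and in 16 of the 36 carriers, and the GC box in 32.7% and in 24 of the 36. The NRF-1 site occurred in 3.74% of all windows and in 2 carriers, Slc25a3 and Slc25a31. Neither the ATF4 composite site TGATGNAA (3.45% of all windows) nor the ER stress element (CCAAT and CCACG, 9 bases apart, 0.113%) was found in these windows of the 36 carriers. The ETS site CCGGAAGT was found in 2.88% of windows and in Slc25a20, and the cyclic AMP response element TGACGTCA in 1.55% and, among the first windows, in Slc25a36. A later window of Slc25a25, shown further on, also holds TGACGTCA. Of the motifs searched, the GC box was the 1 found in more than 1 of the 3 leading carriers.

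**Figure D1:**
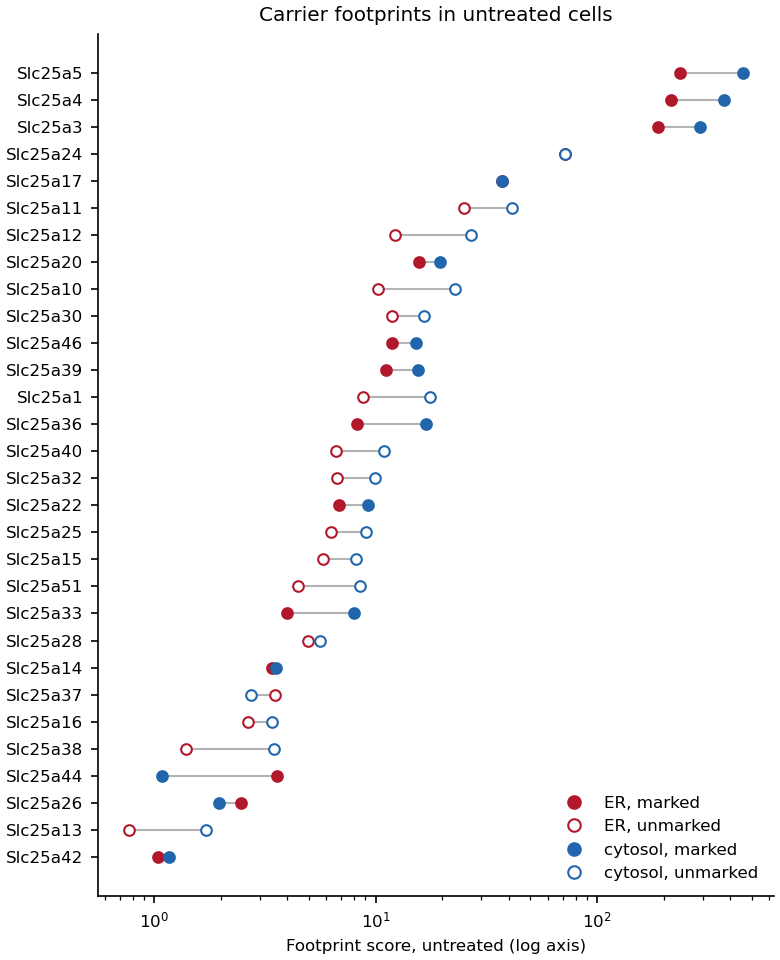
Untreated footprint scores (log axis) of the 30 carriers with a value in both fractions, ordered by their sum; each carrier has 1 point for the ER and 1 for the cytosol, filled where the gene is marked TRUE and open where it is FALSE. Slc25a5, Slc25a4 and Slc25a3 stand apart at 188 to 456, the 2 points of Slc25a24 (71.3 and 71.9) and of Slc25a17 (37.3 and 37.3) coincide, and Slc25a44 has the widest lead of the ER over the cytosol.

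Untreated cells were compared between fractions first. Slc25a5 had scores of 238 in the ER and 456 in the cytosol, Slc25a4 of 215 and 373, and Slc25a3 of 188 and 293. All 3 were lower in the ER. Slc25a24 had 71.3 and 71.9 and Slc25a17, the peroxisomal carrier of cofactors, 37.3 and 37.3, so these 2 were even between fractions. That holds for the scaling of the thapsigargin series only. In that of the DTT series they had 65.1 and 75.9, and 34.1 and 39.4. Slc25a11 (malate/oxoglutarate) had 25.2 and 41.4, Slc25a12 (aspartate/glutamate) 12.3 and 27, and Slc25a10 (dicarboxylates) 10.3 and 22.9. Slc25a20, which exchanges acylcarnitine for carnitine, had 15.7 and 19.5, and Slc25a30, an uncoupling-protein relative, 11.9 and 16.5. Each of these 5 was again lower in the ER.

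Over the 28 carriers the ER minus cytosol difference had a median of -0.46 and ran from -1.08 to 1.14, beside a median of -0.48 over all 9323 genes. Slc25a10 (-1.08) and Slc25a12 (-1.07) were over 2-fold lower in the ER, where 13.6% of all genes were. Slc25a44, a carrier of branched-chain amino acids, was over 2-fold higher (1.14, from scores of 3.58 and 1.09), where 12.2% of all genes were. Which carriers pass 2-fold, in both directions, depends on the scaling. In that of the DTT series Slc25a5 (217 and 481), Slc25a1 (8.03 and 18.6) and Slc25a36 (7.52 and 17.8), for example, were also over 2-fold lower in the ER. Shares of all genes were not counted in that scaling. With differences centred on the median of all genes, 1 carrier was over 2-fold higher and 0 lower, beside 14.7% and 1.1% of genes. The 13 marked carriers had a median of -0.39 and the 15 unmarked ones -0.50, while the 42 marked solute carriers of other families had a median of 3.21, with 39 over 2-fold higher. The most abundant of these were Slc38a2, an amino acid transporter, at 221 and 5.25, the glucose transporter Slc2a1 at 145 and 1.66, and Slc3a2, a heavy chain of amino acid exchangers, at 129 and 8.33. No carrier of the Slc25 family reached their median: its highest ER share was 76.7%, in Slc25a44.

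The carriers lay close to other nuclear-encoded mitochondrial genes. Oxidative phosphorylation genes had a median ER minus cytosol difference of -0.65 (85 genes), mitochondrial ribosomal proteins of -0.78 (76) and the protein import machinery of -0.43 (23). The first list was taken by symbol prefix and may hold assembly factors beside subunits. Other inner membrane proteins with several spans had a higher median, 0.31 over 13 genes, and ranged from Mpc1, a subunit of the pyruvate carrier, with 30.7% of its score in the ER, to Abcb10, an ATP-binding cassette transporter, with 93%. The share of Abcb10 rests on low scores, 5.57 in the ER and 0.422 in the cytosol. Of the carrier relatives with other symbols, Mtch2 had 34.7%, Mtch1 47.9% and Ucp2 44.1% in the ER, inside the range of 28.7% to 76.7% of the Slc25 carriers.

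**Figure D2:**
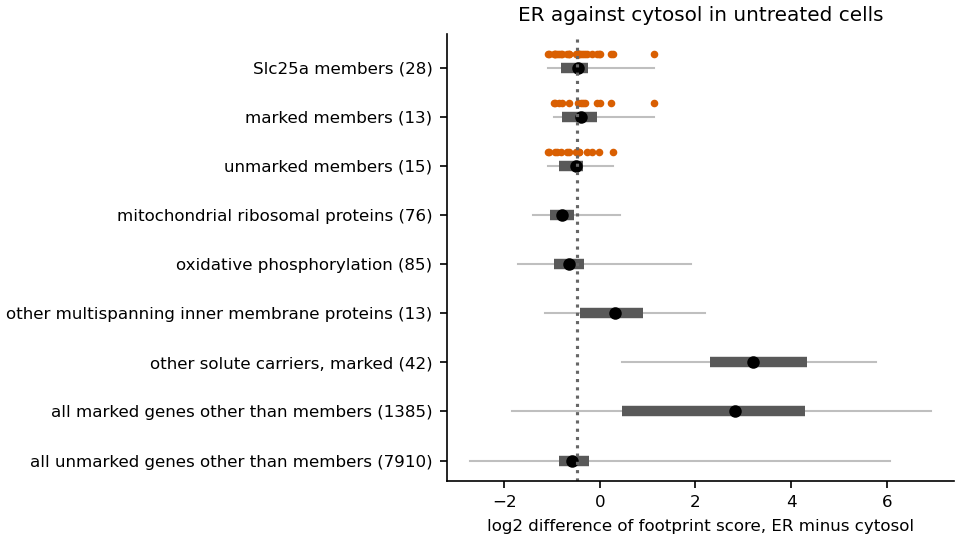
ER minus cytosol log2 difference of untreated footprint scores by gene list (number of genes in brackets); black points are medians, thick bars quartiles, thin lines the full range, orange points single carriers, and the dotted line is the median of all genes (-0.48). The carriers lie around the dotted line whether marked or not, while the marked solute carriers of other families have a median of 3.21.

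Thapsigargin was compared with untreated cells at each time. The ER score of Slc25a4 was 215 untreated, then 98.1, 149, 163 and 225 at 0.5, 1, 2 and 4 h, and its cytosol score 373, then 338, 344, 418 and 248. The ER score of Slc25a5 was 238, then 132, 137, 198 and 229, and its cytosol score 456, then 373, 331, 357 and 382. The ER score of Slc25a3 was 188, then 102, 108, 111 and 156, and its cytosol score 293, then 296, 257, 234 and 231. All 3 had their lowest ER score at 0.5 h, and at 4 h Slc25a4 and Slc25a5 were near the untreated level in the ER while Slc25a3 was not.

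Slc25a24 had ER scores of 71.3, then 37, 34.4, 46 and 53.7, and cytosol scores of 71.9, then 76.5, 65.5, 74.6 and 60.7. Its ER score was below the untreated one at every time, with smaller differences in the cytosol. Slc25a11 had ER scores of 25.2, then 10.3, 14.6, 17.1 and 23.9, and cytosol scores of 41.4, then 28.7, 25.4, 27.1 and 32.3. It was below its untreated score in both fractions at all 4 times. Slc25a17 had ER scores of 37.3, then 27.6, 33.4, 34.5 and 49.8, and cytosol scores of 37.3, then 46.7, 60.3, 36.2 and 28.7, so that its cytosol score was highest at 1 h and its ER score at 4 h.

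Slc25a12 had ER scores of 12.3, then 9.31, 9.99, 11.1 and 12.8, and cytosol scores of 27, then 29.3, 27.4, 19.4 and 18.7. Slc25a10 had ER scores of 10.3, then 6.17, 9.92, 8.61 and 8.23, and cytosol scores of 22.9, then 18.9, 18.8, 13.7 and 12.9. Both had lower cytosol scores at 2 and 4 h than before. Slc25a20 had ER scores of 15.7, then 9.78, 13, 13.1 and 15.3, and cytosol scores of 19.5, then 11, 16.7, 18.3 and 13.5. Slc25a30 had ER scores of 11.9, then 5.77, 6.73, 11 and 15.1, and cytosol scores of 16.5, then 15.3, 14.9, 15.8 and 20.7. At 0.5 h the ER score of all 10 most abundant carriers was below the untreated one, and so was the cytosol score of 6. No share of all genes is set beside these counts.

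At 0.5 h of thapsigargin, 22 of the 28 carriers had a lower ER score than untreated and 11 a lower cytosol score. The same shares over all genes are not given here, so these counts alone do not set the carriers apart. The ER change had a median of -0.49, beside -0.22 for all genes, and the cytosol change 0.10 beside 0.23. Over 2-fold lower in the ER were Slc25a11 (-1.22), Slc25a4 (-1.12), the NAD carrier Slc25a51 (-1.10) and Slc25a16 (-1.05), 4 of 28 beside 14.8% of all genes. Over 2-fold higher was Slc25a37 (mitoferrin-1, an iron importer) at 1.16, beside 4.66% of all genes. In the cytosol Slc25a44 (1.45) and Slc25a37 (1.16) were over 2-fold higher, beside 17.5% of all genes. Marked solute carriers of other families had a median ER change of -0.88 and cytosol change of 2.17. In these bulk fractions, fewer ribosomes on an mRNA and less of that mRNA in the fraction cannot be told apart from the footprint score alone.

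The ER shift, the ER change minus the cytosol change, was below 0 in 24 of 28 carriers at 0.5 h, with a median of -0.51 beside -0.41 for all genes. Since the median of all genes was also below 0, that count alone does not set the carriers apart. Slc25a16 (-1.25), Slc25a46 (-1.06) and Slc25a24 (-1.02) were over 2-fold lower, 3 of 28 beside 20.7% of all genes, and none was over 2-fold higher, beside 0.858%. Slc25a16 had low scores, 2.66 untreated and 0.774 at 0.5 h in the ER, and 3.39 and 4.05 in the cytosol. With shifts centred on the median of all genes 0 were lower and 2 higher, beside 13.3% and 3.87% of genes. The 13 marked carriers had a median shift of -0.74 and the 15 unmarked ones -0.39. Marked solute carriers of other families had -3.10 (38 of 42 over 2-fold lower), all other marked genes -2.77 and all other unmarked genes -0.33. Oxidative phosphorylation, at -0.65, and mitochondrial ribosomal proteins, at -0.51, were close to the Slc25 carriers.

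Later in the thapsigargin series the carriers' shift was small. Its median was -0.20 at 1 h, -0.01 at 2 h and 0.14 at 4 h, beside -0.17, -0.02 and 0.17 for all genes. Marked solute carriers of other families were at -1.78, -1.29 and -0.44. At 1 h Slc25a14, an uncoupling-protein relative, was over 2-fold lower (-1.51), beside 14.3% of all genes, and Slc25a38, a glycine carrier, was over 2-fold higher (1.20), beside 3.14%. The scores of Slc25a38 were low: 1.4 untreated and 2.24 at 1 h in the ER, and 3.48 and 1.63 in the cytosol. In single fractions, Slc25a24 (-1.03) was over 2-fold lower in the ER at 1 h, beside 6.49% of genes, and Slc25a14 (1.8) and Slc25a44 (1.0) were higher in the cytosol, beside 14.9%. At 2 h Slc25a25 (1.33) was over 2-fold higher in the ER, beside 6.88%, and Slc25a44 (1.19) in the cytosol, beside 11.5%. At 2 and 4 h no carrier was over 2-fold shifted in either direction, beside 10.4% of genes lower and 1.06% higher at 2 h, and 3.88% lower and 1.73% higher at 4 h. As a share, the carriers' median ER fraction was 41.2% untreated, then 30.7%, 35.3%, 39.5% and 42.4%.

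**Figure D3:**
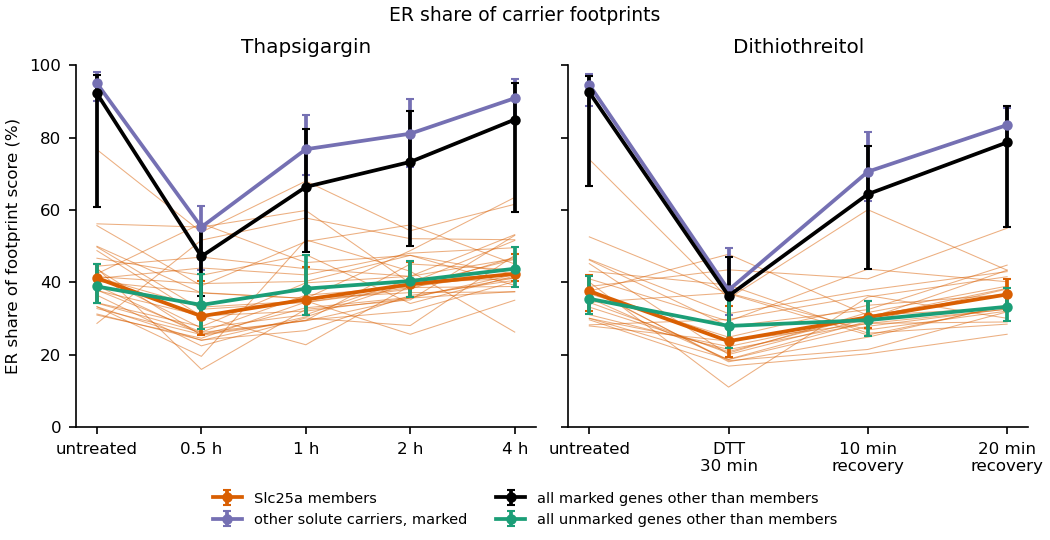
ER share of the footprint score (percent) by condition, thapsigargin on the left and DTT on the right; thick lines join list medians with quartile bars, thin orange lines are single carriers. The carriers' median lies closer to that of unmarked genes than to that of marked ones. On the left it is 41.2% untreated and 30.7% at 0.5 h, and on the right 37.6% untreated and 23.8% after DTT. The marked solute carriers of other families go from 95% to 55.3% at 0.5 h on the left. On the right they go from 94.6% to 37.9% after DTT.

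The mean change, averaged over both fractions, was slightly below that of all genes at each time: -0.24 beside 0.07 at 0.5 h, -0.19 beside 0.05 at 1 h, -0.08 beside 0.11 at 2 h and -0.10 beside 0.10 at 4 h. At 0.5 h Slc25a37 (1.16) was over 2-fold higher, beside 8.42% of genes, and Slc25a51 (-1.0) over 2-fold lower, beside 1.93%. At 1 h Slc25a14 (1.05) was over 2-fold higher, beside 6.8%, and at 2 h Slc25a25 (1.15), beside 6.24%. At 4 h no carrier passed, beside 3.72% higher and 1.14% lower. The family's summed score was 2444 untreated, then 1934, 1939, 2125 and 2131, which was 0.228% of all footprint scores, then 0.171%, 0.164%, 0.19% and 0.201%. Slc25a3, Slc25a4 and Slc25a5 went from 0.164% to 0.118% at 0.5 h, and the other carriers from 0.0635% to 0.0525%. Over the same times oxidative phosphorylation held 2.45%, 2.34%, 2.3%, 2.18% and 2.18%.

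Slc25a25, another calcium-regulated ATP-Mg/phosphate carrier, had a time course of its own. Its ER score was 6.3 untreated, then 7.7, 11.2, 17.4 and 9.16, and its cytosol score 9.04, then 9.8, 15.4, 18.7 and 9.29. Both fractions were highest at 2 h, where its ER change was 1.33 and its cytosol change 0.98, and lower again at 4 h. In the DTT series its ER score was 5.75 untreated, 6.37 after DTT, and 6.25 and 7.26 at 10 and 20 min of recovery, and its cytosol score 9.54, then 6.96, 14 and 14.7. RefSeq lists 3 start windows for this gene on chromosome 2, and window 3 is shown because it differs from the others in motifs.

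Slc25a25, window 3 of 3, chr2:32424067-32424316, minus strand: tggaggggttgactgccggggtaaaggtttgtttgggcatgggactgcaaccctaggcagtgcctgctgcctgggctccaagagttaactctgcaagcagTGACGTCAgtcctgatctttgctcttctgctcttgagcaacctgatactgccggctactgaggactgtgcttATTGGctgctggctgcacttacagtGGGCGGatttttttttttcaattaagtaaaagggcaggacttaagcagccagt

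The capitals mark a cyclic AMP response element (TGACGTCA, which reads the same on both strands), a CCAAT box on the opposite strand and a GC box. The first window (chr2:32451471-32451720) held 3 CCAAT boxes and 1 GC box, the second (chr2:32431152-32431401) 2 CCAAT boxes, and neither held TGACGTCA. The scores do not say which start was used. Slc25a25 had no mRNA score in any condition, so whether its mRNA changed is not known, and a link to these motifs was not tested.

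Of the iron and glutathione carriers, the mitoferrin Slc25a37 was higher early. It had ER scores of 3.53 untreated, then 9.1, 5.99, 3.99 and 2.68, and cytosol scores of 2.75, then 7.36, 4.01, 6.03 and 2.52. Both fractions were highest at 0.5 h and below the untreated level at 4 h. Slc25a28 (mitoferrin-2) had ER scores of 4.93, then 5.39, 6.12, 4.68 and 4.83, and cytosol scores of 5.62, then 7.45, 6.7, 8.99 and 6.73. Slc25a39, which brings glutathione into mitochondria, had ER scores of 11.1, then 8.83, 10.6, 7.55 and 11.7, and cytosol scores of 15.6, then 17.7, 19.7, 21.8 and 21.7. Its relative Slc25a40 had ER scores of 6.61, then 5.78, 4.26, 7.24 and 10.5, and cytosol scores of 10.9, then 13, 9.03, 13 and 14.4. Cytosol scores of Slc25a28 and Slc25a39 were above the untreated ones at all 4 times.

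The branched-chain amino acid carrier Slc25a44 and Slc25a14 were also higher in the cytosol. Slc25a44 had cytosol scores of 1.09 untreated, then 4.71, 3.18, 3.77 and 2.84, and ER scores of 3.58, then 5.52, 6.77, 4.49 and 4.55. Slc25a14 had cytosol scores of 3.56, then 7.59, 14.8, 7.04 and 6.44, and ER scores of 3.4, then 3.35, 4.38, 4.53 and 5.57. Both were above the untreated cytosol score at all 4 times. The pyrimidine nucleotide carriers had their highest ER scores later, Slc25a33 with 3.98, then 2.36, 6.64, 7.57 and 4.78, and Slc25a36 with 8.23, then 6.7, 8.53, 13.1 and 13.8. The citrate carrier Slc25a1 was below its untreated score at all 4 times in both fractions, with ER scores of 8.8, then 4.51, 4.4, 5.87 and 8.32 and cytosol scores of 17.6, then 14.3, 10, 8.82 and 11.9. The ornithine carrier Slc25a15 had ER scores of 5.81, then 2.64, 3.12, 3.94 and 3.45. Its cytosol scores were 8.14, then 4.02, 4.61, 4.35 and 5.36. It too was below its untreated score at all 4 times in both fractions.

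**Figure D4:**
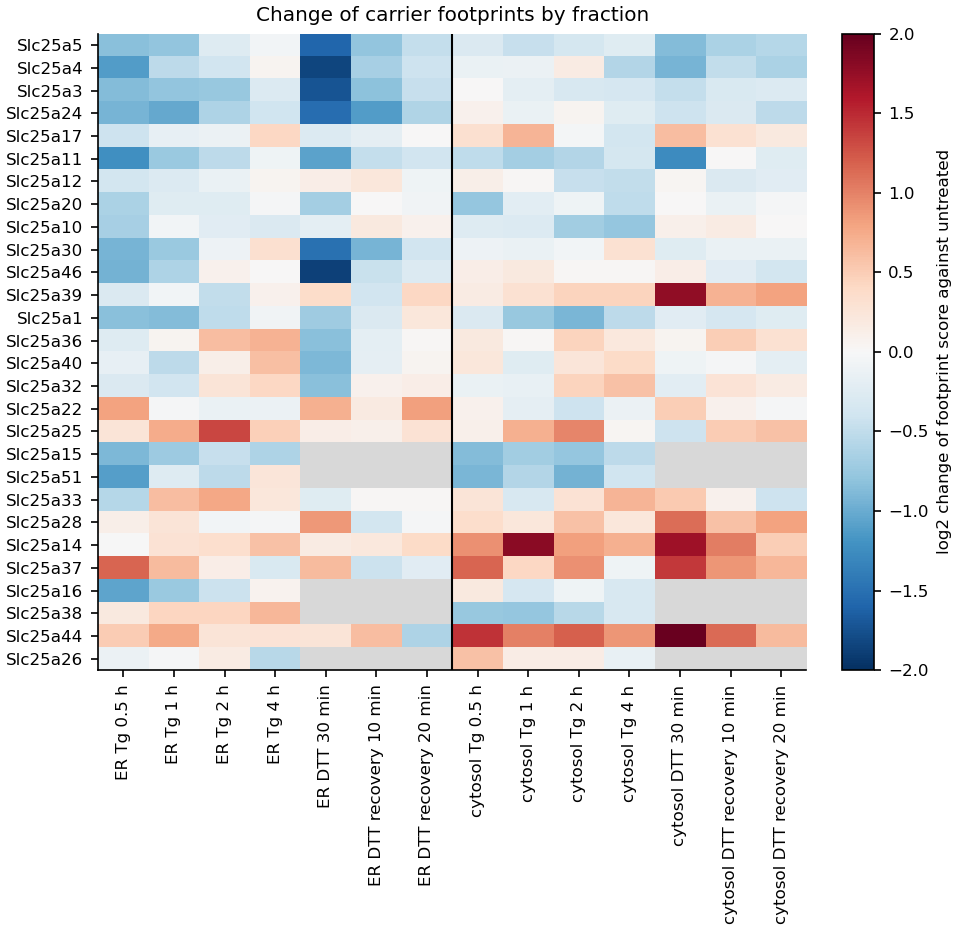
Log2 change of footprint score against untreated cells for the 28 carriers with complete thapsigargin values (rows, most abundant first) in each condition (columns), ER on the left of the line and cytosol on the right; blue is lower, red is higher, grey is not complete in the DTT table, and colours end at 2 in both directions. The ER column after DTT is darkest blue for Slc25a46 (-1.87), Slc25a4 (-1.83) and Slc25a3 (-1.73), and the cytosol column after DTT is darkest red for Slc25a44 (1.97) and Slc25a39 (1.77).

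DTT was compared with the untreated values of the same table. Slc25a4 had ER scores of 196 untreated, 54.6 after 30 min of DTT, and 124 and 148 at 10 and 20 min of recovery. Its cytosol scores were 394, then 207, 279 and 254. Slc25a5 had ER scores of 217, then 71.9, 125 and 156, and cytosol scores of 481, then 262, 311 and 323. Both were low in the 2 fractions after DTT and remained below the untreated level at 20 min of recovery. Slc25a3 had ER scores of 172, then 51, 97 and 124, and cytosol scores of 309, then 221, 251 and 256, again lowest after DTT in both fractions. Slc25a24 had ER scores of 65.1, then 21.9, 29.7 and 42.5, and cytosol scores of 75.9, then 56.6, 61.9 and 52.5. Its ER score was lowest after DTT and its cytosol score at 20 min of recovery.

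Slc25a11 had ER scores of 23, then 10.4, 16.2 and 17.3, and cytosol scores of 43.7, then 17.6, 44 and 36.6, low in both fractions after DTT alone. Slc25a17 had ER scores of 34.1, then 28, 30 and 34.1, and cytosol scores of 39.4, then 61.2, 49.3 and 45.3. Slc25a12 (ER 11.3, then 12.4, 13.2 and 10.5) and Slc25a10 (ER 9.41, then 8.14, 10.9 and 10) had cytosol scores of 28.5, then 29.2, 23.1 and 24.3, and of 24.2, then 26, 27.2 and 24.5, with no difference over 2-fold in either fraction. Slc25a20 had ER scores of 14.3, then 8.54, 14.4 and 13.5, and cytosol scores of 20.6, then 20.6, 18.5 and 20.1. Slc25a30 had ER scores of 10.8, then 3.21, 5.23 and 8.11, and cytosol scores of 17.4, then 14.5, 15.8 and 15.9. The outer membrane protein Slc25a46, which takes part in mitochondrial shape, had ER scores of 10.8, then 2.24, 7.7 and 8.77, and cytosol scores of 16.2, then 17.8, 13.7 and 12.3. In these last 3 carriers the difference after DTT was larger in the ER than in the cytosol.

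The 13 carriers left out of the DTT comparisons for a blank were all blank in the ER after 30 min of DTT, although each had an untreated ER score. That score was 5.3 for Slc25a15, 4.09 for Slc25a51, 2.43 for Slc25a16, 2.26 for Slc25a26 and 1.28 for Slc25a38. The values below, also those over all genes, which were filtered the same way, thus do not cover genes blank in the ER after DTT. Over the 23 carriers complete in the DTT table, the ER change after DTT had a median of -0.68 beside -0.25 for all genes, and the cytosol change 0.04 beside 0.46. Over 2-fold lower in the ER were 7 carriers, beside 19% of all genes: Slc25a46 (-1.87), Slc25a4 (-1.83), Slc25a3 (-1.73), Slc25a5 (-1.58), Slc25a24 (-1.53), Slc25a30 (-1.49) and Slc25a11 (-1.07). Over 2-fold higher in the cytosol were Slc25a44 (1.97), Slc25a39 (1.77), Slc25a14 (1.69), Slc25a37 (1.42) and Slc25a28 (1.11), 5 of 23 beside 30.3% of all genes. Slc25a11 (-1.26) was over 2-fold lower in the cytosol, beside 1.41%. Centred on the median of all genes, the counts were 6 lower and 1 higher in the ER (12.3% and 13.3% of genes), and 3 higher and 3 lower in the cytosol (20% and 8.44%).

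The cytosol scores of the 5 higher carriers were read across the series. Slc25a39 had 16.5 untreated, 58.6 after DTT, and 27.4 and 29.4 in recovery. Slc25a14 had 3.76, then 14.4, 8.7 and 5.67, and Slc25a44 had 1.15, then 7.42, 3.68 and 2.35. Slc25a37 had 2.9, then 9.46, 6.22 and 5.23, and Slc25a28 had 5.93, then 14, 9.38 and 11.1. In all 5 the cytosol score was highest after DTT and was still above the untreated one at 20 min of recovery. These carriers were picked for a high cytosol score after DTT, so a peak there follows largely from the choice. Of all genes, 30.3% were over 2-fold higher in that column. The 5 carriers include both mitoferrins, and 1 of the 2 glutathione carriers: Slc25a40 had 11.5, then 10.7, 11.2 and 9.86.

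The ER shift after DTT had a median of -0.79 over the 23 carriers, 19 of them below 0, beside -0.63 for all 8315 genes. The median of all genes was thus below 0 too, and the share of all genes below 0 is not given here. Over 2-fold lower were Slc25a46 (-2.0), Slc25a44 (-1.72), Slc25a14 (-1.52), Slc25a39 (-1.41), Slc25a3 (-1.25), Slc25a30 (-1.24) and Slc25a24 (-1.11), 7 of 23 beside 32% of all genes. No carrier was over 2-fold higher, beside 1.24% of genes. Centred on the median of all genes, 2 carriers were lower and 1 higher, beside 17.4% and 7.54%. The shift of marked carriers had a median of -0.90 over 12, and that of unmarked ones -0.48 over 11. Marked solute carriers of other families had -3.98 over 42, other marked genes -3.40 and other unmarked genes -0.51. The mean change of the carriers was -0.34 beside 0.20 for all genes, with 4 over 2-fold lower (4.4% of genes), Slc25a4 (-1.38), Slc25a5 (-1.23), Slc25a11 (-1.17) and Slc25a3 (-1.11), and 3 higher (17.5% of genes), Slc25a44 (1.11), Slc25a39 (1.06) and Slc25a37 (1.03). Centred, 7 were lower and 0 higher, beside 8.5% and 12.2%.

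As a share of all footprint scores the family held 0.229% untreated, 0.125% after DTT, and 0.157% and 0.171% in recovery. Slc25a3, Slc25a4 and Slc25a5 together held 0.165%, 0.0717%, 0.102% and 0.113%, and the other carriers 0.0634%, 0.0532%, 0.0558% and 0.0586%. The difference after DTT therefore lay mostly in the 3 leading carriers. Oxidative phosphorylation held 2.46%, 2.61%, 2.61% and 2.39%, and mitochondrial ribosomal proteins 0.524%, 0.509%, 0.575% and 0.554%. The first list was lowest at 20 min of recovery, and the second was lowest after DTT by a smaller proportion than the carriers. This is a description of summed scores, in which abundant genes count most. The ER column after DTT had fewer genes with a value than the other columns, and its part in these shares was not tested.

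Recovery was compared with the end of DTT treatment. The ER shift from DTT to 10 min of recovery had a median of 0.45 over the carriers, beside 0.23 for all genes, with Slc25a46 (1.79) and Slc25a44 (1.21) over 2-fold higher, 2 of 23 beside 17.3% of genes. From DTT to 20 min it was 0.70 beside 0.49, with 8 carriers over 2-fold higher, beside 26.7% of genes. These were Slc25a46 (2.09), Slc25a14 (1.42), Slc25a33 (1.22), Slc25a4 (1.12), Slc25a3 (1.06), Slc25a40 (1.06), Slc25a24 (1.03) and Slc25a39 (1.02). Centred on the median of all genes, 1 carrier was higher and 2 lower, beside 15.8% and 7.73% of genes. Against untreated cells the carriers' shift was -0.40 at 10 min and -0.08 at 20 min, beside -0.48 and -0.24 for all genes, and -2.19 and -1.23 for the marked solute carriers of other families. At 10 min Slc25a37 (-1.32) and Slc25a39 (-1.08) were over 2-fold lower, 2 of 23 beside 21.2% of genes, and none was higher, beside 0.686%. In single fractions at 10 min, Slc25a24 (-1.11) was lower in the ER, beside 4.23%, and Slc25a44 (1.13) and Slc25a14 (1.03) were higher in the cytosol, beside 22.1%. At 20 min Slc25a44 (-1.25) was over 2-fold lower, beside 11.1% of genes, and none was higher, beside 1.86%. The mean change against untreated was -0.01 at 20 min beside 0.18, with no carrier past 2-fold, beside 6.6% of genes higher and 0.156% lower.

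Few carriers had mRNA scores. Of 47 carriers, 15 had at least 1 mRNA score under thapsigargin and 2, Slc25a3 and Slc25a4, had all 10. In the DTT series 13 had at least 1 and the same pair had all 8. The mRNA score of Slc25a4 in the ER was 96.3 untreated, then 77, 115, 88.8 and 106 under thapsigargin, and in the cytosol 148, then 150, 84.6, 81.3 and 102. That of Slc25a3 in the ER was 63.5, then 32.3, 28.1, 42.9 and 28.7, and in the cytosol 53.2, then 70, 47.5, 40.5 and 59.3. The ER mRNA of Slc25a3 was below the untreated score at all 4 times, and that of Slc25a4 was below it at 0.5 and 2 h and above it at 1 and 4 h.

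The mRNA shift at 0.5 h was -1.34 for Slc25a3 and -0.34 for Slc25a4, 1 of 2 over 2-fold lower beside 30.6% of all genes. At 1 h it was -0.99 for Slc25a3 and 1.05 for Slc25a4, and 6.86% of genes were over 2-fold higher. At 2 h it was -0.17 and 0.74, neither over 2-fold. At 4 h it was -1.27 and 0.68, and 4.9% of genes were over 2-fold lower. With genes kept when complete in the columns compared, Slc25a24, with ER mRNA scores of 29.1 untreated, 17.3 at 0.5 h and 10.6 at 1 h, had shifts of -1.12 at 0.5 h, -0.97 at 1 h and 0.21 at 2 h. Slc25a5 had -0.82 at 1 h and 0.03 at 2 h. After DTT the mRNA shift was -0.75 for Slc25a3 and -0.39 for Slc25a4, neither over 2-fold, beside 37.3% of genes over 2-fold lower, and their ER mRNA scores were 58 untreated and 31.7 after DTT, and 87.9 and 69.2. The differences in ER footprints after DTT, -1.73 and -1.83, were larger than those in ER mRNA.

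Ribosome density, the authors' ratio of footprint to mRNA score, was read for the same carriers. For Slc25a4 it was 2.22 in the ER and 2.52 in the cytosol of untreated cells, 0.82 and 1.36 after DTT, and 1.26 and 1.93, then 1.74 and 1.56, at 10 and 20 min of recovery. For Slc25a3 it was 2.97 and 5.54 untreated, 1.6 and 4.52 after DTT, 2.5 and 2.93 at 10 min, and 3.09 and 4.74 at 20 min. Both had their lowest ER density after DTT, while the lowest cytosol density of Slc25a3 was at 10 min. Under thapsigargin the ER density of Slc25a4 was 1.29 at 0.5 h, 1.42 at 1 h, 1.96 at 2 h and 2.32 at 4 h, and that of Slc25a3 3.88, 2.81, 2.59 and 5.74. At 0.5 h the first was below its untreated value and the second above. Slc25a46 had ER densities of 0.101 after DTT, and 0.278 and 0.339 at 10 and 20 min, with no untreated ER value. Over 106 values of carriers the deposited density divided by the ratio of the scores ran from 0.732 to 1.36, with a median of 1.01. For the ER density of Slc25a3 this quotient was 1.23 at 0.5 h of thapsigargin and 0.732 at 1 h. At 1 h its deposited density was below the untreated one, but the ratio of its scores was above it.

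Slc25a5 is uncertain in these layers. Its density was 11.2 in the ER and 18.2 in the cytosol of untreated cells, above the other carriers, with mRNA scores of 21.4 and 25 beside footprint scores of 238 and 456. RefSeq annotates a pseudogene, Slc25a5-ps, and Slc25a5 is a close relative of Slc25a4 and Slc25a31, so reads of these genes may be shared or dropped depending on how the authors mapped them. No source used here says how multiply mapping reads were treated. The mRNA scores of Slc25a5 in the cytosol were 25, then 43, 31.2, 24.9 and 28.7 under thapsigargin, and 26.4, then 36.5, 38.9 and 25.1 in the DTT series.

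**Figure D5:**
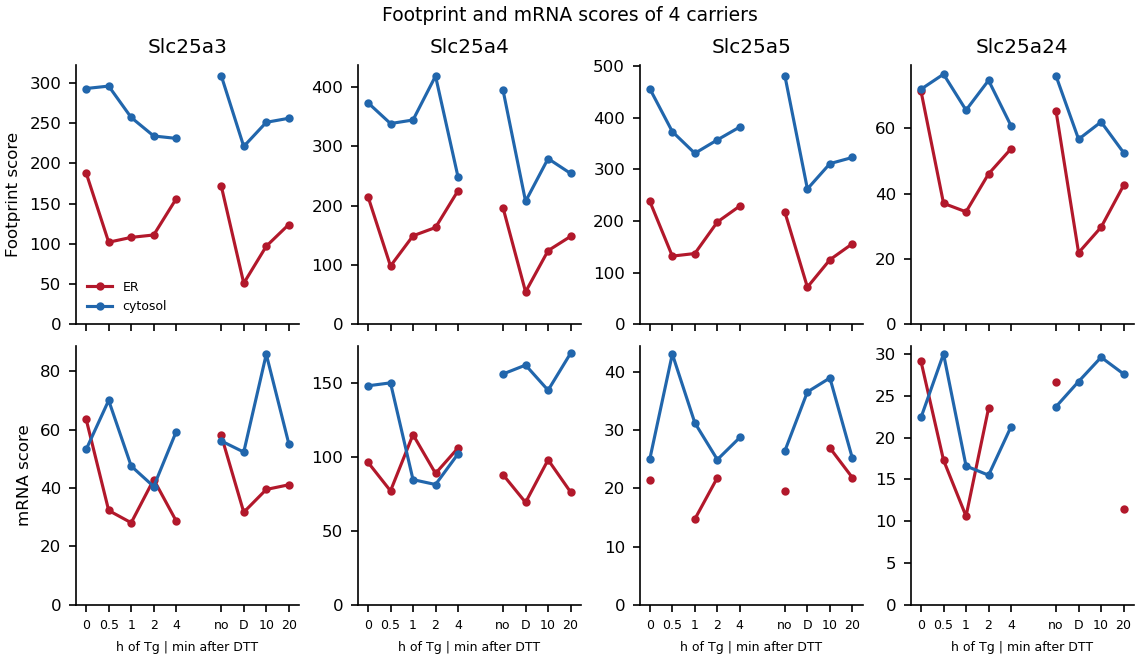
Footprint scores (top) and mRNA scores (bottom) of Slc25a3, Slc25a4, Slc25a5 and Slc25a24 in the ER (red) and the cytosol (blue), each point 1 deposited value; the left run is hours of thapsigargin (0 is untreated), the right run is untreated (no), after 30 min of DTT (D) and after 10 and 20 min of recovery. ER footprints of all 4 are lowest in the DTT series after DTT (51, 54.6, 71.9 and 21.9), and missing points are blank in the tables.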

How the data were processed

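Ribosome footprints and mRNA of ER and cytosol fractions were measured by sequencing in 52 samples of mouse embryonic fibroblasts (26 groups of 2 replicates; 12 of the samples, those with DTT, carry no assay label). Bowtie is named in the submitters' processing notes; its version, the genome build and the unit of the values are not given in the sources used here. Per the file headers, the authors deposited "total translation" and mRNA levels, read here as a score per gene with no stated scale, and ribosome density, whose values are a ratio of the footprint to the mRNA score. A deposited column without a heading holds TRUE or FALSE. The tables hold 1 value per assay, fraction and condition, so depth, counting error and replicate spread are unknown, no count test was possible, and the log2 differences planned for normalized values are given without a test. Nothing in the labels says whether replicates were separate cultures.

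From the deposited scores, log2(score + 1) differences were computed (Python 3.11.15, numpy 2.4.6, pandas 2.3.3) over genes with no blank in that assay's columns of the table. Density was compared on the log2 scale. Differences over 2-fold (above 1 or below -1 in log2) were counted for the carriers and for all genes. The code was tested on simulated data. Carriers, lists and comparisons were chosen with earlier results of these data known. Values in every condition were given for the 10 carriers with the highest untreated footprints, and carriers over 2-fold were named in the comparisons described; Slc25a1, Slc25a15 and Slc25a36 were also described by role, after their values were seen. Gene names are those of the tables. Promoter windows and motif searches used RefSeq (GRCm38.p6), which may not be the authors' build. Alternatives were a pseudocount of 0.1, no filter on blanks elsewhere, a strict filter on genes above the median level, centring on the median of all genes, and density from the ratio of the scores.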

Additional observations from a re-analysis of the deposited data

How the results depend on the processing

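Medians over the carriers were the same in 99 of the 107 combinations of result and alternative. "The same" meant the same side of the 2-fold limit and a move of less than 0.25 on the log2 scale. This tolerance was set here because no replicate spread was available. Under centring on the median of all genes, 5 of these medians moved and 6 were the same. Of 339 further combinations, 266 were the same, 55 moved and 18 became weaker. Under centring these further counts were 14, 16 and 18. Centred on the median of all genes, the untreated ER minus cytosol median was 0.02 for footprints and 0.10 for density, and the ER shift was -0.10 at 0.5 h of thapsigargin, -0.17 after DTT and 0.21 from DTT to 20 min of recovery. Without the filter on blanks elsewhere, the mRNA shift was -1.12 at 0.5 h (3 carriers) and -0.89 at 1 h (4 carriers), where more carriers entered. Under the strict filter the mean change after DTT was -0.66 over 10 carriers. Counts over 2-fold moved too: 3 carriers were lower in ER shift at 0.5 h, against 6 with a pseudocount of 0.1 and 0 centred, and 7 after DTT, against 3 under the strict filter and 2 centred. No paired analysis was possible because the tables hold 1 value per assay, fraction and condition, and for the same reason no replicate could be left out. Scores near 1, as in Slc25a44, Slc25a16 and Slc25a38, depend most on the pseudocount, and mRNA scores were complete for 2 carriers only.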
